A study of Arabidopsis thaliana with 7 samples.

Results

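The small single-copy region of the plastid genome of Arabidopsis thaliana carries 7 genes for subunits of the chloroplast NADH dehydrogenase-like (NDH) complex, namely ndhF, ndhD, ndhE, ndhG, ndhI, ndhA and ndhH. They were chosen by name and position and not by any measured value. They are 7 of the 128 plastid genes of the annotation, with 8445 bp together. Except for 302 bp of ndhF, they lie in a window between positions 110700 and 127900 of the TAIR10 chloroplast, of which they make up 47.3%. Peaks of cyclobutane pyrimidine dimers, the main lesion that UV-C forms between neighbouring pyrimidines, were taken from that window. It held 72 of the 460 chloroplast peaks of the series and of the 2936 peaks in all, and 46 of the 72 overlapped an ndh gene by at least 1 bp.

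The UV group was 4 libraries from seedlings given 3000 J per square metre of UV-C, and the untreated group was 2 libraries from seedlings labelled as without UV. All came from wild-type Col-0 plants 3 weeks old, grown with 16 h of light and 8 h of darkness, and in all of them DNA was precipitated with an antibody against the dimers. A single input library without antibody had no peak list here. The labels number the replicates but do not say whether they are separate batches of plants, so p-values cover only the spread between these libraries.

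The NDH complex sits in the thylakoid membrane, takes electrons from reduced ferredoxin to plastoquinone, and takes part in cyclic electron flow around photosystem I. It resembles respiratory complex I, with a membrane arm that pumps protons and a peripheral arm that carries iron-sulphur clusters. Plastid DNA encodes part of its subunits and the nucleus the rest. In plants ndhH, ndhA, ndhI, ndhG, ndhE, psaC and ndhD are neighbours that are transcribed together, while ndhF lies apart, at the border with an inverted repeat. Dimers block DNA and RNA polymerases, and in plants they are split by photolyases under light or cut out by repair enzymes.

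Read depth is unknown, and the lists held 228 to 677 peaks with UV and 433 and 587 without. UV replicates 1 and 4 stood apart on the chloroplast, with 46321 and 42322 bp under a peak. UV replicates 2 and 3 had 7223 and 10067 bp, and untreated replicates 1 and 2 had 3237 and 12491 bp. All 6 lists were called against the same pooled input. The stretch between positions 84223 and 110795, and all that follows 127751, was free of peaks in every list.

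Peaks lay on the ndh genes both with and without UV, but not in every library. In UV replicates 1 to 4 the window held 18, 8, 4 and 25 peaks, against 1 and 16 in untreated replicates 1 and 2. Untreated replicate 1 had its 1 peak in ycf1 and none on an ndh gene. Untreated replicate 2 held more window peaks than UV replicates 2 and 3, so the groups overlapped. The UV group averaged 13.8 ± 9.54 window peaks (SD, n = 4), against 8.5 ± 10.6 in the untreated group (SD, n = 2), a difference smaller than the spread in either group (two-sided exact permutation p = 0.533, and 0.933 after Benjamini-Hochberg adjustment over 2 values of the window). With 15 splits of 6 libraries into 4 and 2, the smallest p possible is 0.0667, so no group comparison here could pass 0.05. Without untreated replicate 1 the difference, UV minus untreated, was -2.25 peaks.

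**Figure D1:**
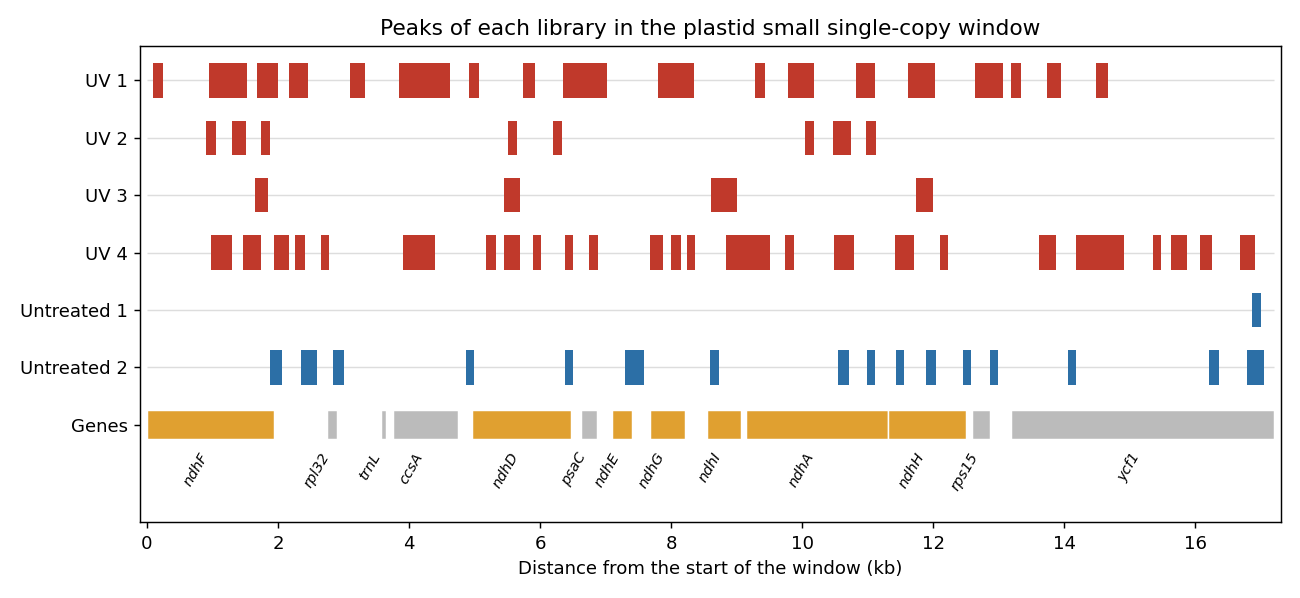
Peaks (bars, drawn to their width) of each library along the window, in kb from its start, with 4 UV libraries above 2 untreated ones; the lowest line shows genes, ndh genes in orange and others in grey. UV replicates 2 and 3 had 8 and 4 peaks, each on an ndh gene, while UV replicates 1 and 4 and untreated replicate 2 also had peaks between and beyond these genes.

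Of the 7 genes, 6 had a peak in at least 1 UV list and 6 had one in untreated replicate 2. Over the 96 plastid genes outside the inverted repeats these shares were 89.6% and 45.8%, and over the 49 protein-coding ones of at least 300 bp, among which are all 7, they were 98.0% and 67.3%. Peaks were found on 5, 3, 4 and 6 ndh genes in UV replicates 1 to 4, against 0 and 6 in untreated replicates 1 and 2. Of single lists, the share over all plastid genes is given for untreated replicate 2 alone. The other counts therefore cannot be called particular to the ndh genes. The length under peaks separated the libraries further. Peaks covered 36.1%, 15.7%, 13.1% and 35.5% of the ndh gene length in UV replicates 1 to 4, against 0% and 12.2% in untreated replicates 1 and 2. Every UV library was above both untreated ones, though UV replicate 3 exceeded untreated replicate 2 by less than 1 percentage point. This was not particular to these genes. It also held for the pooled atp genes, with 43.4%, 12.7%, 14.9% and 44.1% against 3.15% and 7.85%. The pooled rps and rpl genes, and ndhC, ndhJ and ndhK together, were separated as well. The pooled psa, psb, pet and rpo genes and the other genes of the window were not. The UV group averaged 25.1% ± 12.4 (SD, n = 4), against 6.10% ± 8.62 in the untreated group (SD, n = 2).

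The genes for the proton-pumping membrane subunits NdhF and NdhD were the ndh genes of the window with a peak in all 4 UV libraries, as had 19.8% of the 96 plastid genes and 32.7% of the 49 longer protein-coding ones. Peaks covered 44.4%, 21.9%, 8.75% and 26.4% of ndhF in UV replicates 1 to 4, against 0% and 2.63% in untreated replicates 1 and 2. The groups did not overlap, at 25.3% ± 14.7 in the UV group (SD, n = 4) and 1.32% ± 1.86 in the untreated group (SD, n = 2), with an exact permutation p of 0.133. The groups overlapped when each list was limited to the peaks scoring higher than its median, with a difference of 13.4 in place of 24.0 percentage points, and in lists of equal length, with 17.2. The untreated value came from 59 bp of 1 peak, at 112580 to 112765, of which 31.7% lay in the gene and whose score stood at percentile 88.1 of its list. All UV peaks on ndhF but 1 lay between positions 111608 and 112703. UV replicate 1 had peaks at 110795 to 110941, 111648 to 112232 and 112377 to 112703, at percentiles 16.4, 85.9 and 98.9 of its list, the last with the highest score of its chloroplast peaks, 15.6. UV replicate 2 had 3 peaks, at 111608 to 111757, 112004 to 112205 and 112443 to 112581. UV replicate 3 had 1, at 112354 to 112549, and UV replicate 4 had 2, at 111681 to 112000 and 112163 to 112433. Their scores differed widely, with the 1 peak of UV replicate 3 at percentile 14.4 of its list, those of UV replicate 2 at 80.7, 42.1 and 30.9, and those of UV replicate 4 at 80.5 and 19.6. From 111608 on the peaks formed a chain in which no base was covered by all 4 lists.

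For ndhD, whose transcript in Arabidopsis gains its start codon by RNA editing, peaks covered 26.9%, 18.2%, 16.2% and 41.8% of the gene in UV replicates 1 to 4. In untreated replicates 1 and 2 they covered 0% and 7.78%. Again the groups did not overlap, at 25.8% ± 11.7 in the UV group (n = 4) and 3.89% ± 5.50 in the untreated group (n = 2), with an exact permutation p of 0.133. Both untreated peaks on ndhD lay across an end of the gene, with 22.1% and 68.2% of their width inside it, and their scores stood at percentiles 13.8 and 13.6 of their list. A stretch of 136 bp inside the gene, at 116209 to 116344, was under a peak in UV replicates 2, 3 and 4 and in no untreated list. The peak there in UV replicate 3, at 116145 to 116387, scored 7.25, at percentile 97.6 of its list, while those of UV replicates 2 and 4 stood at percentiles 30.3 and 58.1. UV replicate 1 had no peak on that stretch and its nearest one on ndhD at 116440 to 116622.

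Among the other membrane subunits, ndhA had peaks in 3 of the 4 UV libraries. NdhA joins the membrane arm to the peripheral arm, and its gene holds an intron, which the annotation used here does not mark. Peaks covered 38.9%, 25.8%, 0% and 37.1% of ndhA in UV replicates 1 to 4, against 0% and 13.4% in untreated replicates 1 and 2. The groups overlapped because UV replicate 3 had none (means 25.5% ± 17.9, n = 4, and 6.68% ± 9.45, n = 2, exact permutation p = 0.333). The peak of untreated replicate 2 at 121249 to 121415 scored 9.42, percentile 99.0 of its list and the highest percentile of all 72 window peaks. UV replicates 2 and 4 had peaks over the same bases, at 121171 to 121441 and 121189 to 121491, at percentiles 94.7 and 98.4. UV replicate 1 had none there. A second stretch, at 121690 to 121811, was under peaks of UV replicates 1 and 2 and of untreated replicate 2. A merged region of ndhA from 120434 to 120883 was found with UV alone, as a chain of peaks of replicates 1, 2 and 4.

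The small membrane subunit genes ndhG and ndhE differed from the others and from each other. Peaks covered 77.4%, 0%, 0% and 65.5% of ndhG in UV replicates 1 to 4, and 0% in both untreated replicates. Both libraries with a peak were those with the most chloroplast sequence under peaks (exact permutation p = 0.467, n = 4 and 2). In UV replicate 1 this was a single peak of 556 bp, at 118497 to 119052, and in UV replicate 4 a pair at 118381 to 118578 and 118696 to 118845. For ndhE, the shortest of the 7 genes at 306 bp, no UV library had a peak, against 0% and 38.9% of the gene in untreated replicates 1 and 2 (exact permutation p = 0.333, n = 4 and 2). This peak, at 117991 to 118286, stood at percentile 97.6 of its list, but 40.2% of its width lay in ndhE and its midpoint lay outside the gene.

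The peripheral arm genes ndhH and ndhI overlapped between the groups. NdhI binds iron-sulphur clusters, and NdhH is a core subunit next to them. Peaks covered 33.9%, 0%, 22.4% and 34.3% of ndhH in UV replicates 1 to 4, against 0% and 26.1% in untreated replicates 1 and 2 (exact permutation p = 0.667, n = 4 and 2). Untreated replicate 2 had 3 peaks on ndhH, more than any UV library, but the peak at 123149 to 123270 had 36.1% of its width in the gene. By midpoint, untreated replicate 2 had 2 peaks on ndhH, as had UV replicate 4. Without untreated replicate 1, the difference for ndhH, UV minus untreated, was -3.41 percentage points. A stretch at 122594 to 122699 was under peaks of UV replicates 1 and 3 and of untreated replicate 2. For ndhI, peaks covered 0%, 0%, 78.0% and 42.6% of the gene in UV replicates 1 to 4, against 0% and 26.6% in untreated replicates 1 and 2 (exact permutation p = 0.733, n = 4 and 2). The highest value was in UV replicate 3, which otherwise had few chloroplast peaks, and came from a single peak of 405 bp, at 119305 to 119709. In UV replicate 4 the peak at 119542 to 120204 ran from ndhI into ndhA. The difference for ndhI, 16.9 percentage points, was 0.899 without UV replicate 3, 3.56 without untreated replicate 1, 30.2 without untreated replicate 2, 26.9 without UV replicate 1 or 2 and 6.21 when peaks were assigned by midpoint.

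**Figure D2:**
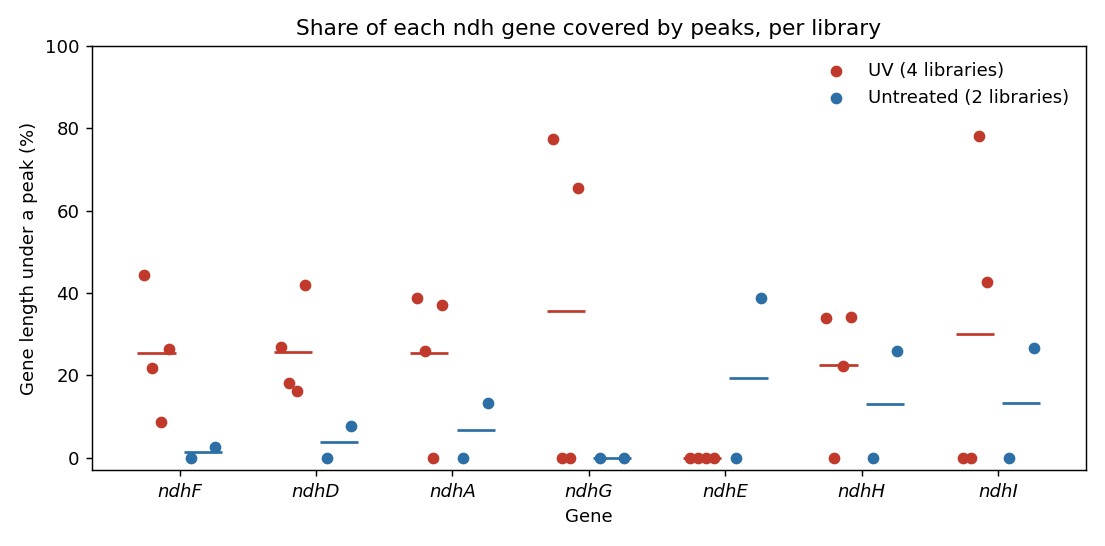
Percent of each ndh gene's length under a peak, 1 point per library, UV (red) left of untreated (blue), with horizontal lines at group means; genes are ordered by subunit role. All 4 UV points lie above both untreated points for ndhF and ndhD, and ndhE has its one point above 0 in untreated replicate 2.

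The exact test was run on all 96 plastid genes, and no gene passed. After adjustment over these genes every one of the 7 had an adjusted exact permutation p of 1. Every UV library was above every untreated one for 2 of the 7 ndh genes, ndhF and ndhD, which is 28.6%. The share was 8.33% over all 96 plastid genes, and 16.3% over the 49 longer protein-coding ones. A peak in at least 2 UV lists and in neither untreated list was found for 1 of the 7, ndhG, which is 14.3%, against 26.0% of the 96 and 24.5% of the 49. The median difference in percent covered, UV minus untreated, was 18.8 percentage points over the ndh genes, 22.7 over the 96 and 23.4 over the 49. No difference between the ndh genes and these other genes was tested. The count of ndh genes with a peak in at least 2 UV lists and no untreated list was 6 of 7 without untreated replicate 2, and 0 without UV replicate 1 or without UV replicate 4. The shares of the 96 and the 49 genes above hold for all 6 lists. They are not given for left-out replicates, so these counts cannot be called particular to the ndh genes.

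The UV lists overlapped in part on the ndh genes, and no base was common to all 4. Of the 8445 bp, 63.5% lay under a peak of at least 1 UV list, 31.9% under at least 2 and 4.97% under 3. The 420 bp under 3 UV lists were in ndhF (284 bp) and ndhD (136 bp), and none of them was under an untreated peak. Between 29.4% of ndhH and 43.7% of ndhG lay under at least 2 UV lists for the members other than ndhE, at 0%, and ndhD, at 24.4%. UV replicate 2 had 55.1% of its ndh bases under peaks of UV replicate 1, while 36.1% of all ndh bases lay there. UV replicate 1 had 23.9% of its own under peaks of UV replicate 2, while 15.7% of all ndh bases lay there. For UV replicates 1 and 4 the shares were 36.9% of the first and 37.6% of the other. Of all ndh bases, UV replicates 4 and 1 covered 35.5% and 36.1%, which is close to these shares. Whether the UV lists shared more ndh bases than their cover alone would give was not tested.

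Most ndh bases with a peak in untreated replicate 2 also had one in a UV list. Of its 1030 bp, 81.8% lay under at least 1 UV peak, while 63.5% of all ndh bases did. In turn 15.7% of the ndh bases under any UV peak lay under untreated replicate 2, while 12.2% of all ndh bases did. What it held alone was 187 bp, of which 119 bp were in ndhE. By merged region, 17 regions touched an ndh gene. UV lists alone made up 8 of them, both groups 7 and untreated replicate 2 alone 2, and 4 of the 8 had a peak in at least 2 UV lists. Over the whole window, these included, 15 of 30 regions were from UV lists alone, 12 from both groups and 3 from untreated lists alone. There were 4 UV lists against 2 untreated ones, and no share over the whole chloroplast is given. These counts therefore cannot be called particular to the ndh genes.

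**Figure D3:**
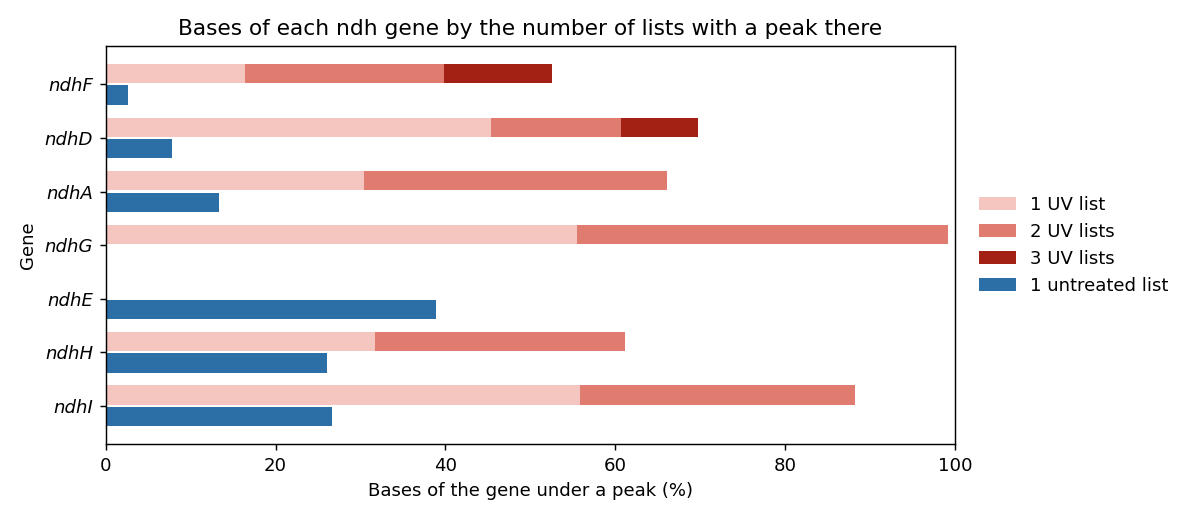
Percent of the bases of each ndh gene under a peak in 1, 2 or 3 UV lists (stacked red bars, upper) and in 1 untreated list (blue bars, lower). Bases under 3 UV lists occur in ndhF and ndhD, at 12.7% and 9.05% of the gene, and ndhE has an untreated bar alone.

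Next to these genes in the window lie rpl32, trnL, ccsA, psaC, rps15 and ycf1, of 7100 bp together. This length includes the part of ycf1 (5361 bp) that runs on past the end of the window, where no list had a peak. Percents above 0 over the full length are thus lower than over the window alone. CcsA attaches haem to cytochrome c, PsaC carries iron-sulphur clusters of photosystem I, Rpl32 and Rps15 are ribosomal proteins, and the ycf1 product belongs to the protein import machinery of the chloroplast envelope. Peaks covered 25.3%, 0%, 0% and 33.7% of the full length of these other genes in UV replicates 1 to 4. In untreated replicates 1 and 2 they covered 2.08% and 8.61%. UV replicates 2 and 3 therefore had all 12 of their window peaks on ndh genes, a pattern picked out after the values were seen. In UV replicates 1 and 4 the peaks on ndh genes were 11 of 18 and 13 of 25, and in untreated replicate 2 they were 10 of 16. The genes ccsA and psaC had peaks in UV replicates 1 and 4 alone, over 78.8% and 49.4% of ccsA and 100% and 44.7% of psaC. Of the full length of ycf1, 10.2%, 0%, 0% and 33.0% were covered in UV replicates 1 to 4. The values in untreated replicates 1 and 2 were 2.76% and 10.1%. This gene runs on past the last peak of any list and past the end of the window. It was the one gene of the window with a peak in both untreated libraries.

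The mean share of chloroplast peaks that fell in the window was nearly equal in both groups, while single libraries differed widely. Window peaks were 13.3% of the chloroplast peaks in UV replicate 1 (exact Clopper-Pearson 95% interval 8.10 to 20.3%), 20.5% in replicate 2 (9.30 to 36.5%), 8.70% in replicate 3 (2.42 to 20.8%) and 16.1% in replicate 4 (10.7 to 22.9%). In untreated replicates 1 and 2 they were 5.26% (0.133 to 26.0%) and 24.2% (14.5 to 36.4%), so the lowest and the highest share were both untreated. These intervals cover counting error only. The UV group averaged 14.7% ± 4.96 (n = 4) and the untreated group 14.8% ± 13.4 (n = 2), with an exact permutation p of 0.933 before and after adjustment. The window is 17.0% of the sequence formed by it and the large single-copy region up to the last peak there.

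The ndh genes were covered less than the 83 genes of the large single-copy region in both UV libraries with wide chloroplast cover. In UV replicates 1 and 4 peaks covered 36.1% and 35.5% of the ndh gene length, against 49.0% and 44.8% of the large single-copy gene length. In UV replicates 2 and 3 the order turned, with 15.7% and 13.1% of the ndh genes against 8.74% and 11.96% of the others. Untreated replicate 1 had 0% against 4.64%, and untreated replicate 2 had 12.2% against 10.1%. The difference between the 2 sets of genes averaged -3.52 ± 9.17 percentage points with UV (n = 4) and -1.28 ± 4.75 without (n = 2). It therefore varied between libraries of a group by more than the groups were apart. By peaks per kb the window was below the large single-copy region in UV replicates 1, 3 and 4, with 1.05, 0.233 and 1.45 against 1.39, 0.499 and 1.54, and above it in UV replicate 2, with 0.465 against 0.368. Untreated replicates 1 and 2 had 0.0581 and 0.930 in the window against 0.214 and 0.594. In UV replicate 3 this order differed from that by gene cover, which took the ndh genes alone and not the whole window. By bases covered, the whole window was also lower there, with 6.45% against 10.6% of the large single-copy region.

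**Figure D4:**
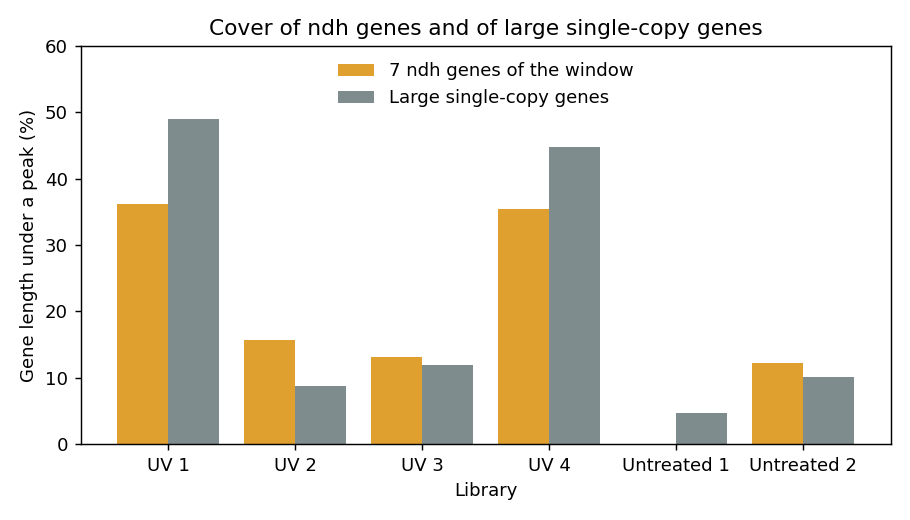
Percent of gene length under a peak in each library, for the 7 ndh genes of the window (orange) and the 83 large single-copy genes (grey), UV libraries left of untreated ones. The grey bar is higher in UV replicates 1 and 4 and untreated replicate 1, the orange bar in UV replicates 2 and 3 and untreated replicate 2.

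The remaining plastid ndh genes lie elsewhere. The large single-copy genes ndhC, ndhJ and ndhK, for a membrane subunit and a pair of peripheral arm subunits, had 58.3%, 17.7%, 29.4% and 58.0% of their joint length covered in UV replicates 1 to 4, against 9.49% and 12.5% in untreated replicates 1 and 2. For ndhK every UV library was above both untreated ones, with 70.8%, 39.7%, 30.2% and 40.3% of the gene against 21.2% and 0% (exact permutation p = 0.0667, the smallest possible, adjusted p = 1 over 96 genes). The inverted repeat gene ndhB, for a proton-pumping subunit, is listed in 2 copies, and no library had a peak on either. This was not particular to ndhB, since no list had any peak between positions 84223 and 110795 or after 127751. Of 9 nuclear genes for NDH subunits (NdhL, NdhM, NdhN, NdhO, NdhS and PnsB1 to PnsB4), 0 had a peak in any of the 6 lists, where 5.29% of all nuclear protein-coding genes had one.

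Of 44 plastid genes of at least 300 bp outside the window and the inverted repeats, rpoC2 came nearest to the pooled ndh genes in percent covered over the 6 libraries. It encodes a subunit of the plastid RNA polymerase, and its mean absolute difference was 2.96 percentage points. Peaks covered 31.9%, 4.50%, 11.6% and 35.3% of it in UV replicates 1 to 4, against 0% and 11.5% in untreated replicates 1 and 2. The next were trnK at 4.19 points, matK inside it at 5.37, the protease gene clpP at 5.49 and accD at 7.03, a fatty acid synthesis gene.

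Peaks of the window were wider in UV lists than in untreated replicate 2 at the median. The median width was 283.5, 144.5, 254 and 198 bp in UV replicates 1 to 4, against 148 bp for the single peak of untreated replicate 1 and 140 bp in untreated replicate 2. In the large single-copy region this order did not hold for UV replicates 2 and 3. Medians there were 285, 162, 170.5 and 225 bp in UV replicates 1 to 4. Untreated replicates 1 and 2 had 149.5 and 188.5 bp there. The narrowest width of a whole list was 147, 136, 145 and 124 bp in UV replicates 1 to 4, against 129 and 122 bp in untreated replicates 1 and 2, so UV replicate 2 was close to its floor. Window peaks of exactly that width numbered 3, 2, 0 and 5 in UV replicates 1 to 4, against 0 and 5 in untreated replicates 1 and 2. By the authors' score, the median window peak stood at percentile 76.6, 61.4, 91.1 and 58.1 of its own list in UV replicates 1 to 4, and at 94.0 and 87.1 in untreated replicates 1 and 2. The other chloroplast peaks stood at 79.5, 33.8, 87.6 and 77.0 in UV replicates 1 to 4, against 90.1 and 53.8 in untreated replicates 1 and 2.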

How the data were processed

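DNA from Arabidopsis seedlings was immunoprecipitated for cyclobutane pyrimidine dimers and sequenced. The deposited files were 1 peak list per precipitated library. Each library was called by the authors against the same pooled input, as the deposited names show. CASAVA 1.8.2, Bowtie and MACS2 with TAIR10 are listed per the submitters' processing notes, without settings or a threshold. Which MACS2 quantity the deposited score of a peak holds is unknown, so scores only ranked peaks within a list. Read depth is unknown.

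Genes came from a RefSeq table of TAIR10.1. Its plastid positions were assumed to hold on TAIR10. All 6 protein-coding genes it places wholly in the longest peak-free stretch, 26571 bp, are listed again elsewhere in it. The table gives no exons or strand. Sequence was not used here, so dipyrimidine content was not analysed.

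A gene had a peak where they overlapped by at least 1 bp, and cover was the percent of its bases under peaks. No filter on low values was used. Group values are means ± SD. Comparisons used a two-sided exact permutation test with all 15 assignments of 6 libraries to 4 UV and 2 untreated, with Benjamini-Hochberg adjustment over all 96 plastid genes outside the inverted repeats. This replaces the planned adjustment over the 7 genes, and no p is given for values pooled over them. Members, lists and tests were chosen with earlier results of these data known. Named were the 7 genes, the other genes of the window, other NDH genes and the 5 plastid genes nearest in cover. Code was tested on simulated data. Python 3.11.15, numpy 2.4.6, scipy 1.17.1 and matplotlib 3.10.9 were used. Alternatives were the midpoint rule, score, width and list length filters, left-out replicates, large single-copy bases in place of genes, and a replicate block.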

Additional observations from a re-analysis of the deposited data

How the results depend on the processing

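All values here are UV minus untreated, in percentage points for cover and shares. The percent of ndh gene length covered kept its direction under every alternative run, with 12.9 to 25.1 when 1 replicate was left out. The cause of the changes that follow was not tested. Assigning peaks by midpoint turned the ndh minus large single-copy cover to 0.719. Without peaks of the narrowest width the share of chloroplast peaks in the window was 2.79. With replicate number as a replicate block (replicates 1 and 2) that share was 2.17 and ndhI was -13.3. The deviations of same-numbered libraries correlated at 0.180 and 0.0292 over 96 genes (Pearson r), with 2 numbers shared. With 2 untreated libraries these values cannot show whether the numbers pair the libraries. The labels do not say that the numbers mark a shared batch, so they were not taken to do so. The count of ndh genes in at least 2 UV and no untreated lists was 2 by midpoint (ndhF, ndhG), 2 for peaks above the median score and 2 for lists of equal length (both ndhD, ndhG). For these same 2 filters the count with every UV list above every untreated one was 1 (ndhD, without ndhF). Shares over all plastid genes under the alternatives, left-out replicates included, are not given here, so such counts cannot be called particular to the ndh genes. Leaving out 1 replicate gave -2.25 to 12.75 window peaks, -1.5 to 4.5 ndh genes with a peak, -9.57 to 9.40 for the share, -5.72 to 1.12 for ndh minus large single-copy cover, -3.41 to 22.7 for ndhH, 0.899 to 30.2 for ndhI, 21.8 to 47.6 for ndhG, 12.1 to 27.3 for ndhA, -38.9 to 0 for ndhE and 0 to 6 ndh genes in at least 2 UV and no untreated lists. The low ends of window peaks, genes, share and ndhH came without untreated replicate 1 and the high ends without untreated replicate 2. With 2 untreated libraries and no read depth, small differences could not be resolved.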
